A study of Mus musculus with 1528 samples.

Results

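The 5 CC chemokine genes *Ccl3*, *Ccl4*, *Ccl5*, *Ccl6* and *Ccl9* were picked out by name from a table of fragment counts for 55421 genes, each symbol matching 1 Ensembl identifier. The cells were wild-type bone marrow-derived macrophages (BMDMs) grown with CSF1 from 2 C57BL/6 mice. They were stimulated with IL4+IL13 or, with TNF added, with IL4+IL13+TNF, for 24 h, and every cytokine was used at 10 ng/ml. These groups are called without TNF and with TNF. Live cells were sorted singly into wells and sequenced by Smart-seq2, a full-length method without molecular identifiers. Mouse 1 filled plates 2 and 3 and mouse 2 filled plates 4 and 5. Every plate held IL4+IL13 cells in its upper rows and IL4+IL13+TNF cells in its lower rows, so treatment and position on the plate cannot be told apart. No unstimulated cells and no cells given TNF without IL4+IL13 were among the samples, so all values compare TNF against cells that also received IL4+IL13.

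Of 1524 wells, 1386 cells passed the quality filters, which were 357 of mouse 1 and 333 of mouse 2 without TNF, and 347 and 349 with TNF. The median cell held 447264 to 490310 fragments in the 4 groups of mouse and treatment. Of 8 macrophage markers, *Csf1r*, the CSF1 receptor, and *Lyz2*, lysozyme, were found in 100% of the cells kept, and *Adgre1*, *Cd68*, *Itgam* and *Cd14* in 94.7% to 99.9%. The lowest were *Fcgr1*, an Fc receptor, in 47.8% and *Mertk*, a receptor for the uptake of dying cells, in 27.5%. Among 29 markers of T and NK cells, mast cells, neutrophils and B cells, the highest share of cells at equal depth was 32.7% for *S100a8*, a neutrophil and monocyte gene, with TNF in mouse 2. The *Gzma*, *Ncr1* and *Prss34* genes of that set had 0 fragments in all cells kept. Markers of dendritic cells were not part of that set, and 1 of them was found in most cells. Of 8 such markers, *Flt3* was found at full depth in 93.1% of the cells kept. The others were found in lower shares, down to 0.505% for *Clec9a*.

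CC chemokines are small secreted proteins that bind G protein-coupled receptors on leukocytes and guide their migration. Ccl3, Ccl4 and Ccl5 draw monocytes, T cells and NK cells into inflamed tissue, and Ccl3 and Ccl5 are ligands of Ccr1. Ccl6 and Ccl9 act mainly through Ccr1 and are known products of myeloid cells of rodents. The genes sit in the CC chemokine cluster, where several neighbours arose by duplication.

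On chromosome 11 of mm10 the 5 genes lay within 138.9 kb. From the lower coordinate, *Ccl5* (ENSMUSG00000035042) ran from 83525778 to 83530518, *Ccl9* (ENSMUSG00000019122) from 83572919 to 83578636 and *Ccl6* (ENSMUSG00000018927) from 83587882 to 83593087, all on the minus strand. *Ccl3* (ENSMUSG00000000982) followed from 83647844 to 83649355 on the minus strand, and *Ccl4* (ENSMUSG00000018930) from 83662584 to 83664683 on the plus strand. The annotation calls all 5 protein coding. Only 2 other genes of the table lay between them, E230016K23Rik and the pseudogene *Rpl9-ps1*, with 956 and 231 fragments over all cells kept against 16815 for *Ccl5*, the lowest of the members. E230016K23Rik spans *Ccl6* on the other strand, and the counting did not use strand, but the exons of the members shared 0 bases with exons of another gene. Of the 31-base words in the transcripts of *Ccl3* and *Ccl4*, 0 occurred in transcripts of another gene, and for *Ccl5*, *Ccl6* and *Ccl9* the shares were 0.539%, 1.02% and 3.75%.

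RefSeq start regions (GRCm38.p6, 250 bases before to 50 after the start, shown 5′ to 3′ on the gene's strand) were matched for 3 members and are given because these genes moved in different directions with TNF. *Ccl4* and *Ccl5* were not matched. The *Ccl3* region is chr11:83649329-83649628, the *Ccl6* region chr11:83593038-83593337 and the *Ccl9* region chr11:83578587-83578886, all on the minus strand. Capitals mark matches on either strand to GGGNNNNNCC (NF-kB-like), GAAANNGAAA (interferon-response-like), TTCNNNNGAA (STAT6-like) or TGANTCA (AP-1-like).
Ccl3: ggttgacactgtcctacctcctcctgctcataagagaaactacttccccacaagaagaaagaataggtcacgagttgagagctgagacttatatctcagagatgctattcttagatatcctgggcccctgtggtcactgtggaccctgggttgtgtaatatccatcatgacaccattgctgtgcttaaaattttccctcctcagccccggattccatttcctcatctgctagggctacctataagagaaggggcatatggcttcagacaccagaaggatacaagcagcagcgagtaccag
Ccl6: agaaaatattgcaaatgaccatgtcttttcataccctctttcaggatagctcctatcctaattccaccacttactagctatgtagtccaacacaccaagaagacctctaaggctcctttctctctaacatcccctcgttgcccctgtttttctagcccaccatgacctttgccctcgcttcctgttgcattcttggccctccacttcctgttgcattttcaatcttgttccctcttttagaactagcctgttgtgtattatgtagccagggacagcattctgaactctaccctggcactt
Ccl9: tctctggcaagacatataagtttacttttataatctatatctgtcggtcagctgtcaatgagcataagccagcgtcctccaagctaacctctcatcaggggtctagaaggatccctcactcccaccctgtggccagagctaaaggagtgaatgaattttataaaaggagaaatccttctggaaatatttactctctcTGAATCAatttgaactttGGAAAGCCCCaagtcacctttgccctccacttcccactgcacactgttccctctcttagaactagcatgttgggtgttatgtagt
Only the *Ccl9* region held matches, an AP-1-like one from -53 to -47 and an NF-kB-like one from -35 to -26, counting the first transcribed base as 0, and they did not overlap. Over 32851 start regions of this length, 50.8% held the NF-kB-like letters, 3.44% the interferon-response-like, 6.95% the STAT6-like and 7.81% the AP-1-like.

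The start regions of *Ccl6* and *Ccl9* contained a similar stretch, chr11:83593073-83593146 in *Ccl6* and chr11:83578588-83578654 in *Ccl9*, shown because these 2 genes also varied together from cell to cell. A link between the stretch and this variation was not tested. Its place differed, from -59 to 14 in *Ccl6* and from -18 to 48 in *Ccl9*, where it ended close to the edge of the region. Capitals mark the 59 aligned bases that are identical.
Ccl6: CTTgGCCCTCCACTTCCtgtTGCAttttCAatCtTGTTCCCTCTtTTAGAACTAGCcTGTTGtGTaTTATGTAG
Ccl9: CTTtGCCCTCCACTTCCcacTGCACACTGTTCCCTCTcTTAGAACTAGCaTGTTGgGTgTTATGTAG
The identical bases made up 79.7% of the *Ccl6* stretch and 88.1% of the *Ccl9* stretch, and the best local alignments of *Ccl3* with either region were 12 and 11 bases long.

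The 5 genes spanned a wide range of levels. Per length, as TPM (transcripts scaled to a fixed total), *Ccl9* stood at 2393 ± 118 without TNF and 3329 ± 393 with TNF (SD, n = 2 mice), which placed it between rank 31 and rank 49 of all genes in the 4 sums. *Ccl6* came next with 722 ± 293 and 1339 ± 124 TPM. *Ccl3* stood at 465 ± 182 and 210 ± 68.3 TPM, and *Ccl4* at 338 ± 194 and 136 ± 49.8 TPM. *Ccl5* was the lowest at 4.59 ± 1.61 and 93.2 ± 36.4 TPM. Without TNF, *Ccl9* was above and *Ccl5* below the rest in both mice, *Ccl3* was above *Ccl4* in both, and *Ccl6* was below *Ccl3* in mouse 1 but above it in mouse 2. Over the mice the ranges overlapped for *Ccl6* (515 to 929 TPM) and *Ccl3* (337 to 594 TPM), and for *Ccl3* and *Ccl4* (201 to 475 TPM). With TNF, *Ccl9*, *Ccl6* and *Ccl3* no longer overlapped, while *Ccl3* (162 to 259 TPM) overlapped *Ccl4* (101 to 171 TPM), which in turn overlapped *Ccl5* (67.5 to 119 TPM).

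To ask how TNF changed each chemokine in IL4+IL13-stimulated BMDMs, counts were summed over the cells of each mouse and treatment. *Ccl5*, *Ccl6* and *Ccl9* were higher with TNF and *Ccl3* and *Ccl4* were lower, in both mice and on all 4 plates. Without pairing, edgeR's quasi-likelihood test called 0 of the 5 members, and 4 of them had an unadjusted p under 0.05. That fit called 1 of 17034 genes (0.00587%), while 1380 had an unadjusted p under 0.05. Each mouse gave cells to both treatments, and with the mouse as a block the same test called 5 of 5 members, 3 higher and 2 lower. That fit called 3.82% of all genes, 1.94% higher and 1.88% lower with TNF. Its error for a gene was estimated in part from the spread of other genes, so these calls do not measure agreement of the 2 mice alone. DESeq2 called 2 of 5 members (3.51% of all genes), or 5 of 5 with the block (12.4%), and edgeR on sums per plate with plate as a block called 5 of 5 (9.99%). That last fit takes its error from 4 plates, 2 a mouse, so it measures the spread of the change between plates and not between mice. For 3 members both sums with TNF were above both sums without, as they were for 18.6% of all genes, and for 2 members they were below, as for 17.9%.

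**Figure D1:**
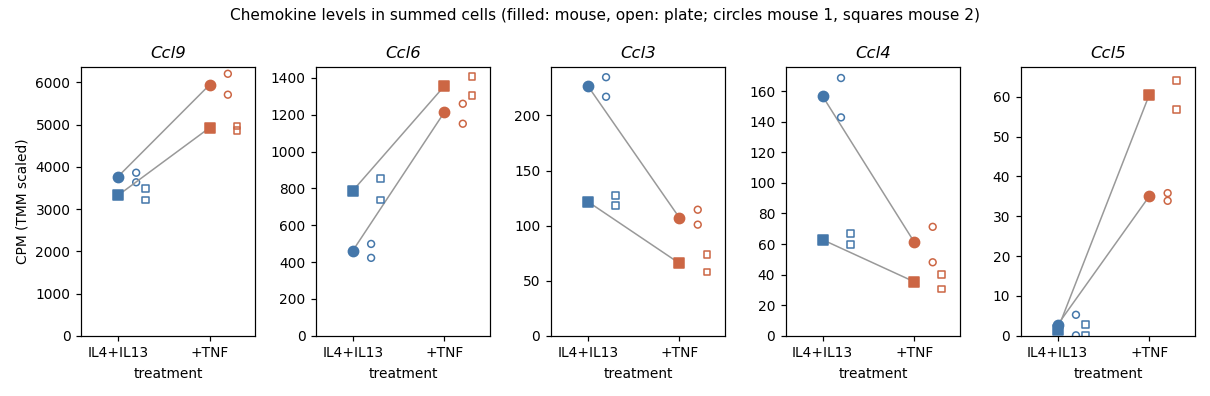
CPM (counts scaled to a fixed library total and by TMM) of each gene, on a linear axis from 0 that differs by panel, against treatment. Filled symbols are the sum of all cells of a mouse, joined by a line within the mouse, and open symbols are single plates (circles mouse 1, squares mouse 2); *Ccl9*, *Ccl6* and *Ccl5* go up and *Ccl3* and *Ccl4* go down along all lines.

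*Ccl5*, which draws T cells and monocytes, had the largest fold change of the 5 genes. Its CPM was 2.75 in mouse 1 and 1.57 in mouse 2 without TNF, and 35.0 and 60.5 with TNF. The ratio was 12.8 in mouse 1 and 38.6 in mouse 2, and no plate with TNF overlapped a plate without. The 4 plates gave 0.101, 5.26, 2.81 and 0.190 CPM without TNF for plates 2, 3, 4 and 5, and 33.9, 35.8, 64.1 and 56.8 CPM with TNF. The log2 fold change was 4.47 (SE 0.46, edgeR adjusted p = 0.135) without pairing and 4.46 (SE 0.43, adjusted p = 0.0137) with the mouse as a block.

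*Ccl5* came from few cells. With the counts of every cell thinned to 339000 fragments, at least 1 *Ccl5* fragment was found in 18 of 332 cells (5.42%, exact 95% interval 3.24 to 8.43) and 11 of 309 cells (3.56%, 1.79 to 6.28) without TNF. With TNF it was found in 79 of 303 cells (26.1%, 21.2 to 31.4) and 74 of 306 cells (24.2%, 19.5 to 29.4). The share differed by 20.7 percentage points in mouse 1 and 20.6 in mouse 2. The 2-sided exact permutation test over the 4 shares gave p = 0.33, the smallest p that 2 against 2 allows. At 5 or more fragments the shares were 0.625% ± 0.0317 and 13.8% ± 0.368 (SD, n = 2 mice), so most of the detection without TNF was by fewer than 5 fragments.

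Within a treatment the *Ccl5* sums rested on the top of the distribution. Without TNF, 1 cell held 85.8% of all *Ccl5* fragments of mouse 1 and 1 cell held 89.0% of those of mouse 2. Without those cells the unscaled CPM went from 2.80 to 0.400 and from 1.63 to 0.180. With TNF the highest cell held 20.1% and 13.9%, and the top 5% of cells held 83.7% and 84.6% of the summed CPM per cell. The median cell stood at 0 CPM in all 4 groups, and the 90th percentile was 42.0 and 55.0 CPM with TNF against 0 without.

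A small set of TNF-treated cells with *Ccr7*, a homing receptor of mature dendritic cells, overlapped the cells with high *Ccl5*. At 100 CPM or more, *Ccr7* was found in 0 cells without TNF and in 1 and 11 cells with TNF in mouse 1 and mouse 2. Of the 11, 9 also had at least 100 CPM of *Ccl5*, a level reached by 31 of 349 cells of that group. These *Ccr7* cells held 5.66% and 33.0% of the *Ccl5* fragments with TNF. Without them the unscaled CPM of *Ccl5* with TNF was 31.7 in mouse 1 and 40.8 in mouse 2, against 33.5 and 59.0 with all cells. The log2 fold change without them was 4.16 (SE 0.33, adjusted p = 0.00835) with the mouse as a block, in a fit that called 4.1% of all genes. Their part in the other members was small, at most 1.48% of the fragments of any group. Of the 11 in mouse 2, 0, 0, 2 and 7 reached 100 CPM of *Ccl3*, *Ccl4*, *Ccl6* and *Ccl9*. Among all cells of that group 21.2%, 10.0%, 80.5% and 97.1% did. The 1 cell of mouse 1 reached that level for none of these 4 genes. Over the 8 dendritic cell markers the summed CPM was 9.96 and 14.7 without TNF and 29.9 and 205 with TNF, 4 were tested, *Ccr7* rose with the block and none of the 8 was at 0. Without *Ccr7*, by which these cells were picked, the other 7 summed to 9.85 and 14.3 CPM without TNF and to 9.47 and 15.4 with TNF. These sums are over all cells of a group, not over the *Ccr7* cells, and they hide changes in different directions. *Flt3* stood at 6.94 to 7.36 CPM in all 4 groups. *Zbtb46* stood at 0.331 and 3.12 CPM without TNF and at 1.38 and 6.55 with TNF. *Siglech* went from 0.724 and 2.07 to 0 and 0.0223 CPM with TNF, and *Cd209a* from 1.34 and 1.47 to 0.00616 and 0.267.

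*Ccl3* and *Ccl4*, both of them macrophage inflammatory proteins, went the opposite way to *Ccl5*. *Ccl3* stood at 227.0 CPM in mouse 1 and 121.9 in mouse 2 without TNF, and at 107.1 and 65.8 with TNF. The lower sum without TNF was mouse 2, close above the higher TNF sum, mouse 1, so the mice differed about as much as the treatments. Within a mouse the level without TNF was 2.12 and 1.85 times that with TNF, and on the 4 plates 1.61 to 2.33 times. The log2 fold change was -1.01 (SE 0.39, edgeR adjusted p = 0.615) without pairing and -0.99 (SE 0.11, adjusted p = 0.0187) with the mouse as a block.

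*Ccl4* stood at 156.6 and 62.8 CPM without TNF and at 61.1 and 35.3 with TNF. Mouse 1 was again higher than mouse 2 in both treatments, and the sums of 62.8 and 61.1 CPM nearly touched. Within a mouse the level without TNF was 2.56 and 1.78 times that with TNF. The log2 fold change was -1.19 (SE 0.51, adjusted p = 0.662) without pairing and -1.10 (SE 0.16, adjusted p = 0.0318) with the block.

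The lower levels of *Ccl3* and *Ccl4* went with fewer positive cells and with lower values among the upper cells. *Ccl3* was found at equal depth in 84.9% (80.6 to 88.6) and 76.1% (70.9 to 80.7) of cells without TNF and in 71.9% (66.5 to 76.9) and 60.8% (55.1 to 66.3) with TNF. *Ccl4* was found in 73.8% (68.7 to 78.4) and 53.7% (48.0 to 59.4) without TNF and in 49.8% (44.1 to 55.6) and 44.8% (39.1 to 50.5) with TNF. For both genes the share was lower with TNF on 4 of 4 plates, with changes of -25.1 to -5.40 percentage points for *Ccl3* and -24.98 to -5.07 for *Ccl4*. The exact permutation p over mice was 0.33 for each. At 5 or more fragments *Ccl3* was found in 72.9% and 52.4% of cells without TNF and in 57.1% and 43.1% with TNF. *Ccl4* was then found in 56.3% and 29.4% without TNF and in 37.0% and 22.9% with TNF. At that threshold the shares were lower with TNF within each mouse but overlapped over the mice, and the exact permutation p was 0.67 for each gene. The 90th percentile of *Ccl3* per cell was 569.7 and 355 CPM without TNF and 300 and 199 with TNF, and that of *Ccl4* was 437 and 191 CPM without and 132 and 97.3 with TNF. The share of cells at 100 CPM or more was 52.9% and 34.2% against 28.2% and 21.2% for *Ccl3*, and 28.0% and 17.4% against 12.4% and 10.0% for *Ccl4*.

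**Figure D2:**
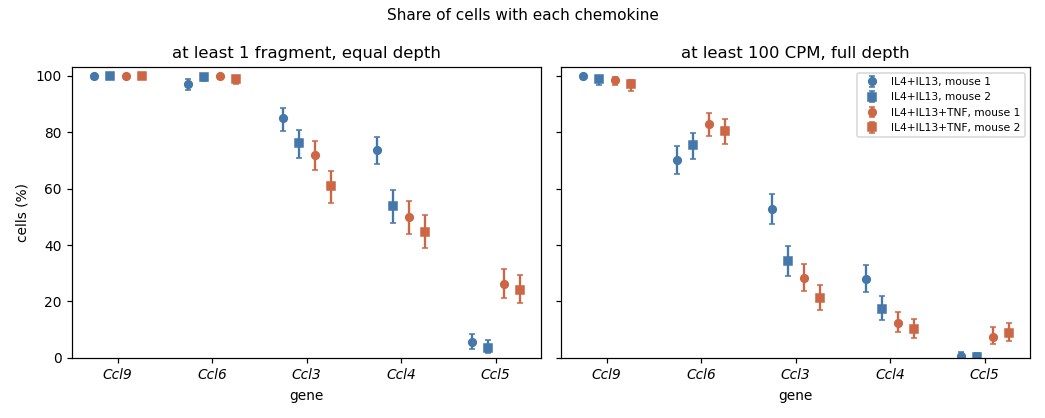
Percent of cells with each gene, at 1 fragment or more after thinning to equal depth (left) and at 100 CPM or more at full depth (right), for each mouse and treatment. Bars are exact 95% binomial intervals over cells and cover counting error only; *Ccl9* and *Ccl6* sit near 100% on the left, *Ccl3* and *Ccl4* are lower with TNF in both mice and *Ccl5* is higher.

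*Ccl9* and *Ccl6*, which act mainly through Ccr1, were present in nearly every cell. *Ccl9* stood at 3764 and 3320 CPM without TNF and at 5939 and 4923 with TNF, so that both sums with TNF were higher. The ratio was 1.58 in mouse 1 and 1.48 in mouse 2, and 1.42 to 1.71 over the plates. The log2 fold change was 0.62 (SE 0.15, edgeR adjusted p = 0.365) without pairing and 0.61 (SE 0.06, adjusted p = 0.0145) with the mouse as a block. *Ccl9* had at least 1 fragment in 100% of cells of all groups at equal depth, so its change lay in the level per cell. The median cell held 3330 and 2753 CPM without TNF and 5063 and 4202 with TNF. Yet the lowest cells lay lower with TNF, at 16.2 and 8.70 CPM against 424 and 34.4, and 97.1% and 98.6% of cells reached 100 CPM with TNF in mouse 2 and mouse 1, against 98.8% and 100% without. This rests on few cells, as 339 of 349 and 342 of 347 reached 100 CPM with TNF in mouse 2 and mouse 1. Of the cells with high *Ccr7*, 7 of 11 and 0 of 1 did, so some of the low cells belonged to that set.

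*Ccl6* stood at 461.8 and 787.5 CPM without TNF and at 1215 and 1357 with TNF. Here mouse 2 was the higher one in both treatments, unlike for the other members except *Ccl5* with TNF. The ratio was 2.63 in mouse 1 and 1.72 in mouse 2, and 1.53 to 2.98 over the plates. The log2 fold change was 1.04 (SE 0.28, adjusted p = 0.422) without pairing and 1.09 (SE 0.16, adjusted p = 0.0307) with the block. At equal depth *Ccl6* was found in 97.3% to 100% of cells of the 4 groups, so the share at 1 fragment could hardly change. The share at 100 CPM or more was 70.3% and 75.4% without TNF and 83.0% and 80.5% with TNF. The median cell held 219 and 368 CPM without and 651 and 741 CPM with TNF.

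**Figure D3:**
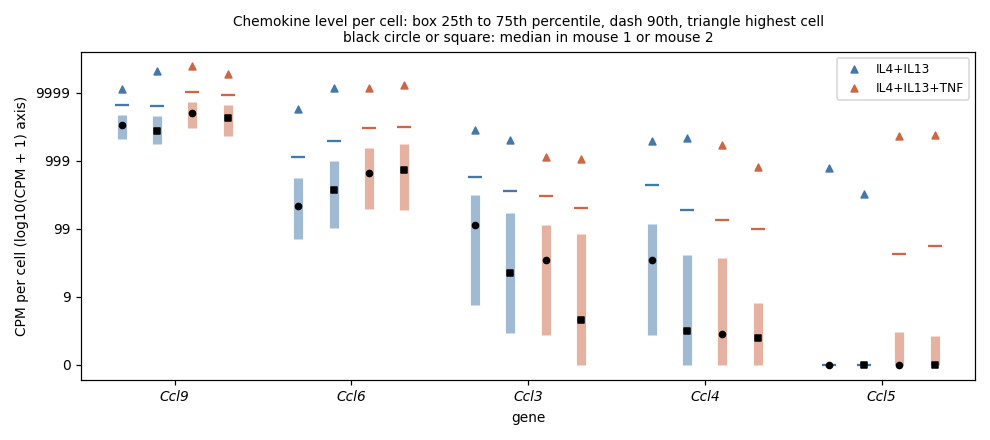
Level of each gene per cell, as CPM on a log10(CPM + 1) axis, for each mouse and treatment (blue without TNF, orange with TNF; mouse 1 left, mouse 2 right within a colour). Boxes run from the 25th to the 75th percentile of cells, the black symbol is the median, the dash the 90th percentile and the triangle the highest cell; *Ccl5* has its median at 0 in all groups while its highest cells with TNF reach 2295 and 2383 CPM.

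The spread across cells differed by gene. The coefficient of variation of CPM across cells (SD over mean) was 0.560 to 0.709 for *Ccl9*, 1.28 to 1.601 for *Ccl6*, 1.37 to 1.94 for *Ccl3* and 2.21 to 3.01 for *Ccl4*. For *Ccl5* it was 15.7 and 15.4 without TNF and 5.45 and 4.27 with TNF. The top 5% of cells held 12.5% to 15.2% of the summed CPM of *Ccl9* but 47.2% to 59.7% of that of *Ccl4*. A cell had on average 3.61 and 3.33 of the 5 genes at equal depth without TNF and 3.48 and 3.29 with TNF. All 5 were found in 3.61% and 1.29% of cells without TNF and in 10.9% and 8.17% with TNF.

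Across cells of the same mouse and treatment, 4 of the 5 genes varied together in pairs. At equal depth, Spearman's rho for *Ccl6* with *Ccl9* was 0.229 and 0.363 without TNF in mouse 1 and mouse 2, and 0.415 and 0.554 with TNF, a mean of 0.390 ± 0.134 (SD, n = 4 groups). For *Ccl3* with *Ccl4* it was 0.426 and 0.312 without TNF and 0.377 and 0.237 with TNF, a mean of 0.338 ± 0.0820. Both pairs were positive in 8 of 8 groups of plate and treatment, from 0.176 to 0.625 and from 0.208 to 0.448. The other 8 pairs had means from -0.0415 (*Ccl3* with *Ccl5*) to 0.0436 (*Ccl4* with *Ccl6*), each with both signs among the plates. For *Ccl5* the mean rho was -0.0415, 0.0112, 0.0153 and 0.00135 with *Ccl3*, *Ccl4*, *Ccl6* and *Ccl9*. These are descriptions over 303 to 332 cells a group that share library preparation and depth, and they carry no p. The mean rho of the CPM of each member with the total fragments of the cell lay between -0.0220 and 0.0496, and with the number of genes found between -0.0525 and 0.0956.

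The rho of *Ccl6* with *Ccl9* was higher with TNF in both mice, with a mean of 0.484 against 0.296. With 2 mice this is a description, and no other pair reached 0.17 in either mean except *Ccl3* with *Ccl4*.

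**Figure D4:**
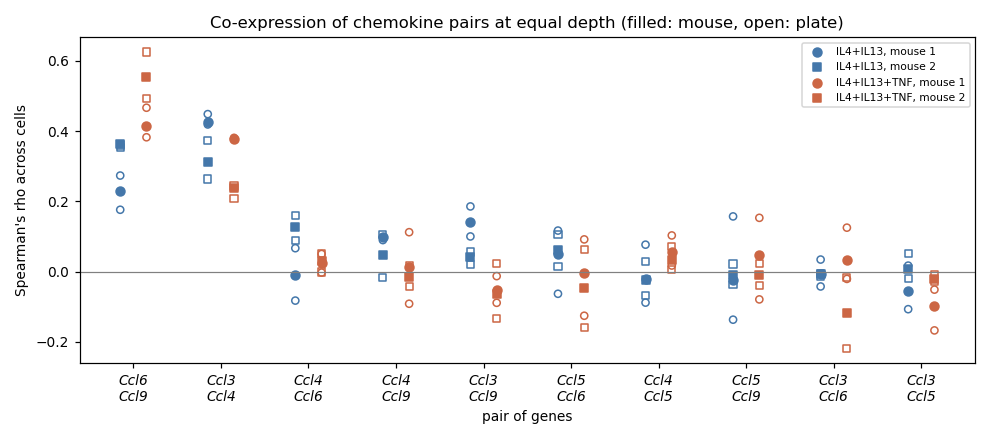
Spearman's rho across cells at equal depth for the 10 pairs of genes, ordered by their mean. Filled symbols are mice, open symbols are plates, blue is without and orange is with TNF; *Ccl6* with *Ccl9* and *Ccl3* with *Ccl4* stay above 0.17 in all groups and the other 8 pairs scatter around 0.

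Among 10651 other genes found in at least 25% of cells, the partner of each pair was the gene most like it. The gene with the highest mean rho was *Ccl4* for *Ccl3*, *Ccl3* for *Ccl4*, *Ccl9* for *Ccl6* and *Ccl6* for *Ccl9*. After *Ccl4*, the genes most like *Ccl3* were *Ccl2*, which draws monocytes, at 0.175 and *Selenoh*, a selenoprotein, at 0.171. For *Ccl4* they were *Stmn1*, a microtubule regulator of dividing cells, at 0.166 and *Ccl2* at 0.160. The step from the partner to the next gene was thus 0.338 to 0.175 for *Ccl3*. For *Ccl6* the next genes were *Anxa1*, a phospholipid-binding annexin, at 0.339 and *Itgb2*, the beta chain of leukocyte integrins, at 0.320. For *Ccl9* they were *Ctsl*, a lysosomal protease, at 0.342 and *Anxa1* at 0.335, so the partner stood out less in this pair. For *Ccl5*, compared with 10652 such genes, the highest values were 0.0965 for *Gm4076*, 0.0956 for *Lrrc57* and 0.0941 for *Crebrf*. This filter left out *Ccr7* and the CC chemokines *Ccl17* and *Ccl22*, each found in fewer than 25% of cells. With TNF in mouse 2, 8 of 15 cells with at least 100 CPM of *Ccl22* also reached that level for *Ccl5*. In mouse 1, 1 of 6 did. Without TNF, 18 of 332 and 11 of 309 cells held a *Ccl5* fragment at equal depth, so rho in these groups rests on few cells.

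High levels of *Ccl3* and *Ccl4* also met in the same cells. Of the cells with at least 100 CPM of *Ccl4*, 73.0% and 62.1% also reached that level for *Ccl3* without TNF in mouse 1 and mouse 2, against 52.9% and 34.2% of all cells. With TNF the shares were 62.8% and 40.0% against 28.2% and 21.2%. Of the cells high in *Ccl3*, 38.6% and 31.6% were high in *Ccl4* without TNF and 27.6% and 18.9% with TNF. Of the 26 and 31 cells high in *Ccl5* with TNF, 6 and 4 were high in *Ccl3* (23.1% and 12.9%), against the same 28.2% and 21.2% of all cells.

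*Ccr1*, the receptor of *Ccl3*, *Ccl5*, *Ccl6* and *Ccl9*, stood at 14.9 and 9.96 CPM without TNF and at 28.8 and 14.02 with TNF. Its log2 fold change was 0.72 (SE 0.20, adjusted p = 0.118) with the block, and it did not pass without the block either, in fits that called 3.82% and 0.00587% of all genes. Of 5 proteoglycans that hold chemokines at the cell surface or in granules, 0 passed either fit, and the most abundant was *Cd44*, a hyaluronan receptor (log2 fold change 0.54, SE 0.11, adjusted p = 0.0621 with the block), followed by *Sdc4*, a syndecan (0.17, SE 0.10, adjusted p = 0.392).

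Genes tied to the signals in the culture were counted in the same fits. Of 14 NF-kB factors and targets, 8 rose with the block and 0 fell (median log2 fold change with the block 1.70, against 0.0107 over all genes tested), among them *Nfkbia*, the inhibitor of NF-kB (1.96, SE 0.14, adjusted p = 0.00771). *Nfkb1*, a subunit of NF-kB, had 0.63 (SE 0.12, adjusted p = 0.0558). Of 14 interferon genes 0 passed either fit (median with the block -0.15), with *Oasl2* at -0.37 (adjusted p = 0.161) and *Usp18* at 0.35 (adjusted p = 0.507). Of 13 immediate early genes, *Ier2* and *Btg2* fell with the block and 0 rose (median 0.00298). Of 10 IL4 and IL13 target genes 2 rose and 3 fell with the block (median 0.23), with *Mrc1*, the mannose receptor, at -0.89 (adjusted p = 0.0289) and *Mgl2*, a lectin, at -0.66 (adjusted p = 0.117). Of 8 cycling genes 5 fell with the block (median -0.69), with *Birc5* at -1.16 (adjusted p = 0.0135) and *Top2a* at -0.72 (adjusted p = 0.0353). Of 8 macrophage markers, *Lyz2* rose and *Mertk* and *Fcgr1* fell with the block. Of the T and NK cell, mast cell, neutrophil and B cell markers 5 were tested and 0 passed. In the fit without the block 0 genes of these lists passed. The mean rho of single members with the mean level of the NF-kB list lay between -0.0826 and 0.0315, and with the interferon list between -0.0877 and 0.0819.

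Other CC chemokines were listed after their values were seen. Of 20, 10 were tested, and 5 rose and 0 fell with the block, *Ccl8*, *Ccl12*, *Ccl17*, *Ccl22* and *Ccl24*. Among all genes tested that fit called 1.94% higher and 1.88% lower. The median log2 fold change of the 10 with the block was 1.13, against 0.0107 over all genes tested. *Ccl8*, which attracts monocytes and other leukocytes, stood at 38.3 and 57.8 CPM without TNF and 223 and 488 with TNF. *Ccl22*, a ligand of Ccr4, stood at 1.07 and 0.664 CPM without TNF and 45.7 and 379 with TNF. The most abundant of the 20, *Ccl7* and *Ccl2*, passed neither fit and differed more between mice than between treatments. *Ccl7* stood at 810 and 133 CPM without TNF and 463 and 191 with TNF. *Ccl2* stood at 685 and 131 CPM without TNF and 542 and 161 with TNF. Their log2 fold changes with the block were -0.14 (adjusted p = 0.840) and -0.017 (adjusted p = 0.966). The mean rho with the mean level of the other CC chemokines was 0.149 for *Ccl3* (0.0360 to 0.293 over the 4 groups) and 0.180 for *Ccl4* (0.0767 to 0.285), and 0.0292, -0.0579 and 0.0138 for *Ccl5*, *Ccl6* and *Ccl9*.

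**Figure D5:**
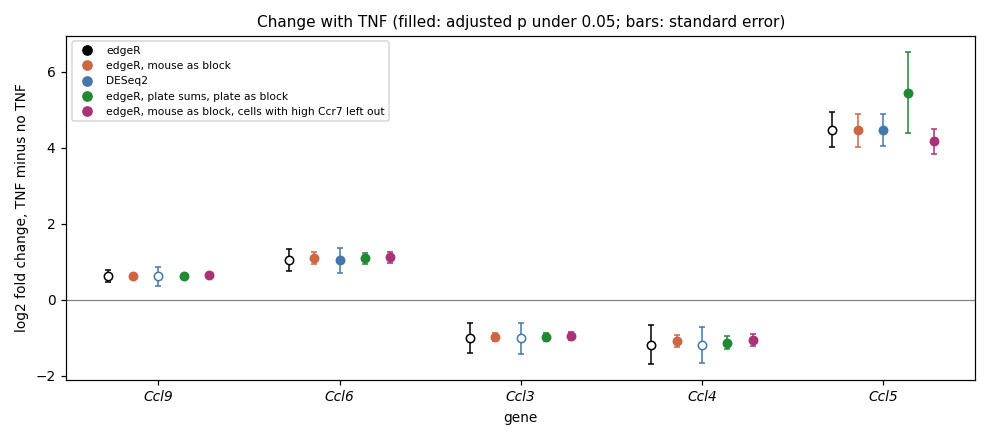
Log2 fold change of each gene, TNF minus no TNF, under 5 fits, with bars of 1 standard error. Filled symbols have an adjusted p under 0.05 over all genes of that fit; the direction of each gene is the same in all 5, and the edgeR fit without a block (black) has no filled symbol while DESeq2 has 2.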

How the data were processed

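Single BMDMs were sequenced by Smart-seq2. The authors aligned reads to mm10 with gsnap, counted fragments per gene of Ensembl 98 with featureCounts 1.6.3 without using strand, and deposited raw counts together with gene lengths in bases, an annotation column and not a measurement. The submitters' notes also name bcl2fastq 2.19.1 and Seurat 3. Columns of 8 libraries matched no sample and were not used. The 5 genes and all gene lists were chosen with earlier results of these data known.

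A cell was kept when its total count and number of genes were not over 3 scaled median absolute deviations below the plate median, and its mitochondrial and spike-in shares not over 3 above it, which left 1386 of 1524 cells. Spike-in rows (92) stayed out of totals. Kept cells were summed per mouse and treatment into 4 sums of 162260282 to 179757666 fragments. The main test was edgeR 4.0.16 (TMM, quasi-likelihood, treatment only, standard error as log2 fold change over the root of F), with Benjamini-Hochberg adjustment over the 17034 genes that passed edgeR's count filter and had a fragment in 5% or more of the cells under either treatment. The replicates were 2 mice, and p-values without the block measure the spread between them. With the mouse as a block, the level of each mouse is taken out, and p-values set the change with TNF against how it differs between the 2 mice. In the fit on plate sums p-values set this change against how it differs between plates. In all these edgeR fits the spread of a gene is moderated by that of other genes, so p-values rest in part on borrowed spread. The log2 change of *Ccl5* was 3.67 in mouse 1 and 5.27 in mouse 2, against the SE of 0.43 with the block. The same mouse number in both treatments means the same animal, and deviations of same-numbered sums from their group means correlated at 0.581, so fits with the mouse as a block stand beside the main ones. DESeq2 1.42.0 and limma 3.58.1 (log2 of mean CPM + 1) were alternatives. The cut on *Ccr7* and the list of other CC chemokines were chosen after seeing the data. The edgeR fits with and without the block, and DESeq2 without it, were tested on simulated counts. DESeq2 with the block and the limma fit were not. The simulated counts held no difference between mice, so they cannot decide between fits with and without the block.

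For shares and rank correlations, cells were thinned to 339000 fragments, leaving out 136 shallower kept cells. The shares carry exact Clopper-Pearson 95% intervals, which cover counting error only, since fragments carry no molecular identifiers. The 5 members were named, with the 3 genes most like each, the genes between them on the chromosome, and from each list those past the threshold or, where none or more than 4 passed, the 2 most abundant. Part of the list of receptors is not reported here. Coordinates came from the count table and matched GENCODE M21 (GRCm38). Tools were R 4.3.3, Python 3.11.15, numpy 2.4.6, scipy 1.17.1 and matplotlib 3.10.9.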

Additional observations from a re-analysis of the deposited data

Results flagged for a closer look

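In 3 IL4+IL13 wells that could not be tied to a mouse and entered no comparison, members were found above the 3 fragments that a count of 0 allows. The well of plate 3 held 279461 fragments in all, with 4 of *Ccl3*, 6 of *Ccl5*, 205 of *Ccl6* and 1160 of *Ccl9*. The well of plate 4 held 354874, with 14 of *Ccl3*, 5 of *Ccl4*, 16 of *Ccl5*, 297 of *Ccl6* and 1509 of *Ccl9*. The well of plate 5 held 87198, with 67 of *Ccl6* and 189 of *Ccl9*, and its 2 fragments of *Ccl3* and 0 of *Ccl4* and *Ccl5* lay under that limit. *Ccl5* came to 21.5, 45.1 and 0 CPM in these wells of plates 3, 4 and 5. In them 10802, 11121 and 8314 genes were found, against medians of 7431 to 8161 in the kept cells. Whether each held 1 cell or more is not known, so these CPM are not given as levels of a single cell.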

How the results depend on the processing

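All 5 genes kept their direction in each of 16 fits. The calls depended on the block. With the mouse as a block the log2 fold changes of *Ccl3*, *Ccl4*, *Ccl5*, *Ccl6* and *Ccl9* were -0.99, -1.10, 4.46, 1.09 and 0.61, with DESeq2 and the block -0.996, -1.10, 4.46, 1.08 and 0.60, with plate sums and plate as a block -0.99, -1.13, 5.45, 1.08 and 0.61, and with the block and without cells high in *Ccr7* (chosen after seeing the data) -0.96, -1.07, 4.16, 1.11 and 0.64, all with an adjusted p under 0.05. DESeq2 without the block called *Ccl5* (4.46) and *Ccl6* (1.03). Leaving out each sum in turn gave -1.41 to -0.50 for *Ccl3*, -1.70 to -0.39 for *Ccl4*, 4.02 to 4.92 for *Ccl5*, 0.70 to 1.48 for *Ccl6* and 0.47 to 0.75 for *Ccl9*. The smallest values of *Ccl3*, *Ccl4* and *Ccl6* came without IL4+IL13 mouse 1, and *Ccl5* passed only without IL4+IL13+TNF mouse 1 (4.81). The lone sum left was assumed to vary like the other treatment. Against 1 gene called over the whole table, the block called 651, DESeq2 598, DESeq2 with the block 2119, plate sums 1685, the block without cells high in *Ccr7* 699, and fits without 1 sum 4 to 30. The cause of these differences was not tested.

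Changes in the share of cells moved with the threshold. At 100 CPM they were -18.9 points for *Ccl3*, 7.76 for *Ccl5*, 8.91 for *Ccl6* and -1.55 for *Ccl9*, and at 5 fragments 13.2 for *Ccl5*, 4.55 for *Ccl6* and -0.327 for *Ccl9*. For *Ccl5*, where the mice differed by only 0.0196 (SD), no thinning gave 21.3, no cell filter 20.6 and leaving out cells high in *Ccr7* 19.6. The share of *Ccl6* turned to -0.657 without mouse 1 (2.71 without mouse 2). With Pearson's r on log2(CPM + 1), 3 pairs near 0 changed sign, to 0.0053 for *Ccl3* with *Ccl6*, -0.0135 for *Ccl5* with *Ccl6* and -0.0405 for *Ccl5* with *Ccl9*. The other 124 values counted as the same. For fold changes this means the same direction and side of the threshold. For shares and correlations it means the same direction and a move smaller than the SD over mice or groups, or none. That SD was wide for the share of *Ccl4* (10.6 points), where -8.95 without mouse 1 and -24.0 without mouse 2 both counted as the same. At this depth a cell without a *Ccl5* fragment may still have held its RNA.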
